A study of Saccharomyces cerevisiae with 15 samples.

Results

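The genes described here encode the proteins of the yeast cytosolic ribosome. They were taken as every probe set whose 1 gene symbol reads RPL or RPS with a number and an optional copy letter A or B, or RPP with 0, 1 or 2 and an optional copy letter, in the table that pairs probe sets with genes. The symbols picked 106 of 9335 probe sets, which stand for 81 of the 5656 genes that have a probe set of 1 symbol. One of them, RPP1, was matched by its letters only. It encodes a subunit of RNase P, the enzyme that trims transfer RNA, so it was counted with the members but described apart. Of the other 105 probe sets, 58 stand for 47 genes of the large subunit and 47 for 33 genes of the small subunit. A further 59 probe sets carry several symbols that all match, because copies of a gene are too alike for the array to part, and they hold 54 further genes.

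The yeast ribosome joins a large subunit, which forms peptide bonds, to a small subunit, which reads the messenger RNA. Most ribosomal proteins are encoded by a pair of nearly identical genes, named A and B, that arose in an ancient duplication of the genome. Their genes are among the most highly transcribed in a growing yeast cell, and the factors Rap1, Fhl1, Ifh1 and Sfp1 raise or lower them together as the TOR and protein kinase A pathways report nutrients and stress. Several members also limit their own messenger RNA, among them RPS14B, RPL30 and RPS28B.

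The yeast strains (Saccharomyces cerevisiae, BY4741, mating type a) all made a piece of human huntingtin, the protein that carries an expanded run of glutamines in Huntington's disease. The Htt103Q fragment is described as inducible by galactose, and 12 mL cultures in uracil-free synthetic medium with 2% galactose were shaken at 30 °C and harvested near an optical density of 1, having started at 0.2. The 5 groups of 3 arrays were Htt25Q (25 glutamines, no deletion), Htt103Q (103 glutamines, no deletion) and strains with Htt103Q that lacked BNA4, MBF1 or UME1. Their products are a kynurenine monooxygenase, a transcriptional coactivator that also binds ribosomes, and a subunit of the Rpd3 histone deacetylase complex, and the series describes the deletions as suppressors. No strain without huntingtin and no deletion with Htt25Q was used here. The labels do not say that arrays of a group came from separate cultures, so each p measures only the spread between these samples.

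Signals are log2 intensities of Affymetrix Yeast Genome S98 arrays, brought to 1 common distribution by quantile normalization, so a change is read against the rest of the array. The deposited values formed 2 processing sets with different lowest values, 2.06 for Htt25Q, Htt103Q and ume1 deletion (9 arrays) and 2.02 for the bna4 and mbf1 deletions (6 arrays). Deletion and processing set cannot be told apart between these sets, so tests stayed within them. BNA4, MBF1 and UME1 had means of 2.12, 2.09 and 2.34 in the strain that lacks each. The a-factor gene MFA2 had group means of 11.42 to 12.81, and MF(ALPHA)2, which a cells keep silent, lay at 2.04 to 2.06. They belong to a list of 12 genes chosen to check the labels, which holds the deleted genes and other mating type genes not described here. Of its 13 probe sets, limma called 0 higher and 3 lower in the ume1 deletion against Htt103Q, and 1 and 4 against Htt25Q. Over all probe sets 2.6% and 7.86% were called. The list's median changes there were −0.827 and −0.569. Array 1 of Htt25Q had an actin 3′ minus 5′ difference of 2.48, against −0.33 to 0.31 elsewhere. Array 1 of the ume1 deletion had an 18S ribosomal RNA signal of 10.39, against 5.90 to 8.08 in the other 8 arrays of its set.

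Ribosomal protein messages were bright. The median member signal lay between 11.93 and 12.41 in the 15 arrays. When each probe set was set against its mean over its processing set, which leaves any difference between the sets out, the median deviation of an array ran from −0.17 in array 3 of Htt103Q to 0.17 in array 1 of Htt25Q. The other 13 arrays had medians of −0.086 to 0.10. Within a group, the median standard deviation of a member over 3 arrays was 0.24 in Htt25Q, 0.17 in Htt103Q, 0.18 in the ume1 deletion, 0.11 in the bna4 deletion and 0.11 in the mbf1 deletion. Over all probe sets the same values were 0.25, 0.13, 0.18, 0.086 and 0.14, so members were not uniformly tighter than other probe sets.

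**Figure D1:**
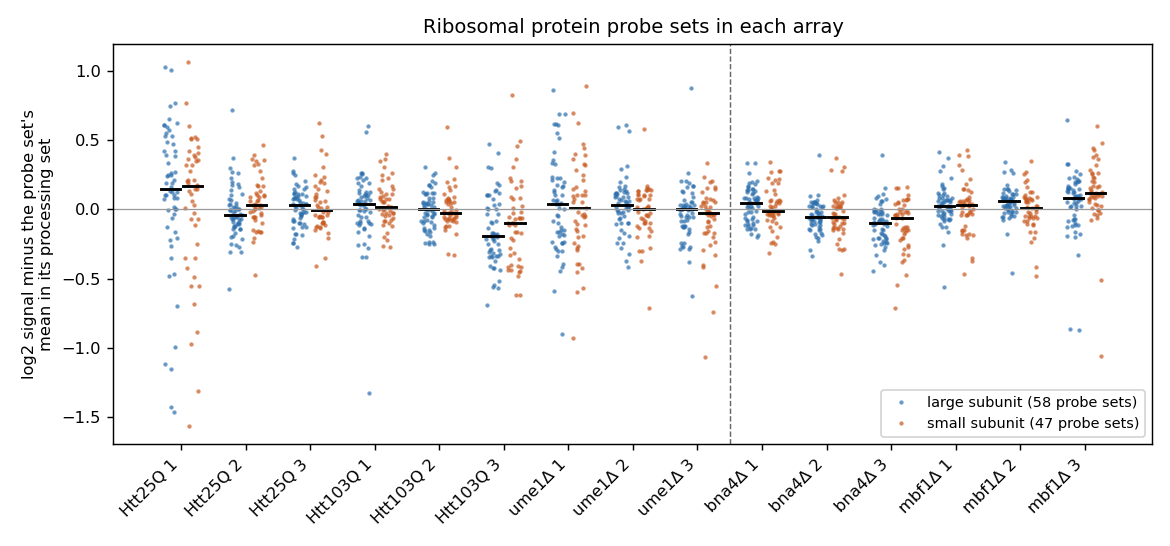
Deviation of the ribosomal protein probe sets from their own mean over the processing set (log2), in each of the 15 arrays, for the 58 large and 47 small subunit probe sets without RPP1. Black bars are medians, and the dashed line parts the 2 processing sets. Most points lie close to 0, with array 1 of Htt25Q high and widely spread and array 3 of Htt103Q low.

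Htt103Q was set against Htt25Q to ask what the long glutamine run changes. No ribosomal protein probe set passed the test: limma called 0 of 106 members, with 4 at an unadjusted p under 0.05 (17.3% of all probe sets), while 412 of 9275 probe sets (4.44%) were called, 2.06% higher and 2.38% lower. The members' median log2 change was −0.114, with 79 below and 27 above 0, against a median of 0 over all probe sets. Large subunit members had a median of −0.099 and small subunit members −0.117. The 3 Htt103Q arrays lay wholly below the 3 Htt25Q arrays for 9 members and wholly above for 2, together 10.4%, against 18.9% of all probe sets (9.91% below, 9.04% above). Without array 1 of Htt25Q the median was −0.033, and without array 3 of Htt103Q it was −0.067.

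The limits on a change lay within 2-fold for most members, and within 1.41-fold for fewer. The 95% interval of the log2 difference between Htt103Q and Htt25Q lay inside −1 to 1, a 2-fold change either way, for 91 of 106 members (85.8%) and for 75.1% of all probe sets. It lay inside −0.5 to 0.5, a 1.41-fold change, for 52 members (49.1%) and 36.3% of all.

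The 3 highest and the 3 lowest changes of that comparison show where single arrays weighed. RPS0B, a protein of the small subunit that is homologous to the human laminin receptor precursor, had the highest, 0.62 for its probe set of suffix _f_at. That probe set read 8.84, 10.72 and 10.49 in Htt25Q and 10.77, 10.71 and 10.43 in Htt103Q. Only array 1 of Htt25Q was low, and the groups overlapped. RPS0A, the other copy, had 0.54 for its _f_at probe set with the same pattern, 9.50 against 11.09 and 10.87 in the other Htt25Q arrays. Their other probe sets gave −0.05 for RPS0B and −0.22 for RPS0A. RPL17B came next, with 0.49 for 1 probe set (0.11 without array 1 of Htt25Q) and −0.19 and −0.01 for its other probe sets.

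Among the lowest, RPS26B, a protein at the messenger RNA exit of the small subunit, changed by −0.52 (adjusted p not past the threshold). It read 11.33, 10.19 and 9.92 in Htt25Q and 10.29, 9.94 and 9.65 in Htt103Q. Again array 1 of Htt25Q stood apart, here high, and the groups overlapped. RPL36A changed by −0.41 with an overlap too. RPP1, the RNase P subunit, read 7.84, 7.30 and 7.13 in Htt25Q and 6.78, 6.98 and 6.83 in Htt103Q, a change of −0.56 ± 0.227 (SE, n = 3 against 3) with a limma adjusted p = 0.233 and no overlap.

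The ume1 deletion was compared with Htt103Q, the matching strain with the gene intact, and with Htt25Q. These 2 comparisons and the one above share arrays, so their values are given side by side and not as independent evidence. Against Htt103Q, limma called 0 of 106 members, with 7 at an unadjusted p under 0.05 (13.4% of all probe sets), against 2.6% of all probe sets called (1.6% higher, 1% lower). Against Htt25Q it called 2 members, against 7.86% of all (4.18% higher, 3.68% lower): RPS14B rose and RPL29 fell. Against Htt25Q, 12 members had an unadjusted p under 0.05, against 23.5% of all probe sets.

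RPS14B encodes a copy of uS11, a protein of the small subunit platform, and in yeast the protein limits splicing of RPS14B's own transcript. Its probe set (locus YJL191W) read 10.32, 10.40 and 10.47 in Htt25Q, 10.94, 10.92 and 10.52 in Htt103Q, and 11.77, 11.46 and 11.08 in the ume1 deletion. The 3 groups did not overlap in any of the 3 comparisons, and their order was Htt25Q, Htt103Q, ume1 deletion. The ume1 deletion was above Htt25Q by 1.04 ± 0.234 (log2, SE, 95% interval 0.53 to 1.56, limma adjusted p = 0.0209), a 2.06-fold difference. Against Htt103Q it was 0.65 ± 0.234 (0.13 to 1.16, adjusted p = 0.235), and Htt103Q against Htt25Q was 0.40 ± 0.234 (−0.12 to 0.91, adjusted p = 0.428). Neither of those passed. The call against Htt25Q was lost without array 1 of the ume1 deletion (0.88, adjusted p = 0.0795) and without its array 2 (1.03, adjusted p = 0.0648).

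RPS14A, the other copy of the same protein, did not pass in any comparison. Its probe set (YCR031C) read 11.93, 11.79 and 11.66 in Htt25Q, 11.76, 11.87 and 12.01 in Htt103Q, and 11.68, 11.65 and 11.72 in the ume1 deletion. The ume1 arrays lay below all Htt103Q arrays and overlapped the Htt25Q arrays, with changes of −0.20 (limma adjusted p = 0.31) and −0.11 (adjusted p = 0.435). By their locus tags, RPS14B, RPS22A and RPL39 are 3 genes in a row, YJL191W, YJL190C and YJL189W. In the ume1 deletion against Htt25Q, RPS22A changed by 0.05 and RPL39 by −0.03, and neither passed.

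RPL29 encodes eL29, a small protein of the large subunit that yeast can grow without, and it is among the single-copy members. Its probe set (YFR032C-A) read 13.75, 13.82 and 13.79 in Htt25Q, 13.53, 13.82 and 13.82 in Htt103Q, and 13.40, 13.27 and 13.59 in the ume1 deletion. Every ume1 array was below every Htt25Q array, and 1 Htt103Q array fell among them. The change against Htt25Q was −0.37 ± 0.0956 (−0.58 to −0.16, limma adjusted p = 0.0401), 1.29-fold lower. Against Htt103Q it was −0.31 ± 0.0956 (−0.52 to −0.10, adjusted p = 0.157), and it passed only when array 1 of Htt103Q was left out (−0.40, adjusted p = 0.0449). The call against Htt25Q held in 6 of 17 alternatives, with adjusted p between 0.0201 and 0.217, and that of RPS14B in 13 of 17, with 0.0122 to 0.126. Some alternatives change only which probe sets count as members: those with no suffix letter, with several-gene probe sets added or without RPP1. They leave the fit as it was, so both calls held there by construction. Without both array 1 of Htt25Q and array 1 of the ume1 deletion, RPS14B (0.84, adjusted p = 0.125) and RPL29 (−0.37, adjusted p = 0.126) did not pass.

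Over all members, the median change of the ume1 deletion was 0.038 against Htt103Q, with 62 above and 44 below 0, and −0.079 against Htt25Q, with 37 above and 69 below. The first turned to −0.019 with the deposited values, to −0.028 with those centred on each array's median and to −0.013 without array 3 of Htt103Q, so it has no settled sign. The second became −0.007 without array 1 of Htt25Q. Groups did not overlap for 11 members against Htt103Q (6 above, 5 below, 10.4%, against 20.4% of all probe sets, 10.6% above and 9.87% below) and for 7 against Htt25Q (4 above, 3 below, 6.6%, against 21.4%, 9.98% above and 11.4% below). The 95% interval lay inside a 2-fold change for 97 and 95 members, 91.5% and 89.6%, against 78.3% and 71.4% of all. It lay inside a 1.41-fold change for 51 and 45, or 48.1% and 42.5%, against 38.3% and 33.9% of all.

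Other extremes in the ume1 deletion did not pass with all arrays in the fit. RPS10A, a protein of the small subunit head, had the lowest change against Htt103Q, −0.98 ± 0.352 for 1 of its 2 probe sets (limma adjusted p = 0.233). It read 12.46, 12.89 and 12.79 in Htt103Q and 11.87, 12.10 and 11.23 in the ume1 deletion, with no overlap, but 11.61, 12.76 and 12.92 in Htt25Q. The other probe set of RPS10A changed by 0.01 in the same comparison, so the 2 readings of this gene differ. The next lowest were RPS10B at −0.59 and RPL9A at −0.46. The highest were RPL7A at 0.70 for its _at probe set, whose Htt103Q mean was only 3.65, then RPS14B, then RPL15B at 0.51. Against Htt25Q, the lowest after RPS10A (−0.69) were RPL9A at −0.55 and RPS20 at −0.48, and the highest after RPS14B were RPL17B at 0.68 and RPL7B at 0.62. With array 1 of Htt25Q left out, RPS10A passed (−1.11, adjusted p = 0.0416), while RPL17B was at 0.31 and RPL7B at 0.24.

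The mbf1 and bna4 deletions were compared with each other within their own processing set, which contrasts 2 suppressor strains and has no Htt103Q control. Here 2 of 106 members were called, both higher in the mbf1 deletion, RPS28B and RPL33B, against 10.5% of all probe sets, 5.74% called higher and 4.81% lower. Unadjusted p was under 0.05 for 10 members, against 21.2% of all. The members' median was 0.076, with 79 above and 27 below 0, and it kept its sign under the alternatives tried, from 0.041 to 0.108. Over all probe sets the median was 0, with 4075 above and 4684 below. The 59 probe sets of several ribosomal protein symbols had a median of only 0.007, with 32 above and 27 below 0, so they did not share the members' shift. The 3 mbf1 arrays lay wholly above the 3 bna4 arrays for 17 members and wholly below for 2, together 17.9%, against 37.3% of all probe sets (17.4% above, 19.9% below). The 95% interval lay inside a 2-fold change for 99 members (93.4%, against 74.5% of all) and inside a 1.41-fold change for 55 (51.9%, against 35.6%).

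RPS28B encodes a copy of eS28, a protein of the small subunit head, and in yeast the protein binds its own message and promotes its decay. The called probe set (suffix _f_at, locus YLR264W) read 9.95, 9.87 and 9.61 in the bna4 deletion and 10.44, 10.41 and 10.63 in the mbf1 deletion. The groups did not overlap, and the difference was 0.68 ± 0.185 (0.28 to 1.09, limma adjusted p = 0.0379), 1.61-fold. The second probe set of the gene (suffix _i_at) read 10.66, 10.32 and 10.08 in bna4 and 11.22, 11.06 and 11.39 in mbf1. It too had no overlap and a larger difference, 0.87 ± 0.318 (0.17 to 1.57), but did not pass (adjusted p = 0.123). With only these 6 arrays in the fit, both passed (adjusted p = 0.0272 and 0.0459). Both also passed without the first arrays of Htt25Q and of the ume1 deletion (adjusted p = 0.0024 and 0.0348). The call for the _f_at probe set did not survive the loss of any single array of the 6, with adjusted p of 0.0646 to 0.143. It also failed with the values as deposited (0.70, adjusted p = 0.0773). In all it held in 7 of 16 alternatives, by construction in those that add several-gene probe sets or leave out RPP1.

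The A copy of the same protein differed less. RPS28A changed by 0.11 ± 0.0915 (limma adjusted p = 0.589) for its _f_at probe set and by 0.04 for its _i_at probe set. The suffix _f_at is given to sets shared by a sequence family, so the _f_at probe sets may not part the copies. In the first processing set, the called probe set of RPS28B read 10.01, 10.73 and 10.79 in Htt25Q, 10.42, 10.34 and 10.31 in Htt103Q, and 10.10, 10.44 and 10.13 in the ume1 deletion. The 3 groups overlapped. Without array 1 of Htt25Q, the ume1 deletion was lower than Htt25Q by limma (−0.54, adjusted p = 0.0209).

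RPL33B encodes a copy of eL33 of the large subunit. It read 10.79, 10.76 and 10.70 in the bna4 deletion and 11.01, 10.93 and 11.23 in the mbf1 deletion, with no overlap. The difference was 0.31 ± 0.087 (0.12 to 0.50, limma adjusted p = 0.044), 1.24-fold. RPL33A, the other copy, read 12.22, 12.16 and 12.33 in bna4 and 12.46, 12.43 and 12.58 in mbf1, also with no overlap, and its difference of 0.25 ± 0.0757 had an adjusted p = 0.0644. The probe sets of both copies have the suffix _f_at, given to sets shared by a sequence family, so they may not part the copies. The RPL33B call held in 5 of 16 alternatives (adjusted p 0.0337 to 0.439) and failed with the values as deposited (0.27, adjusted p = 0.295). It held by construction in the alternatives that add several-gene probe sets or leave out RPP1, since these do not change the fit. When 1 of the 6 arrays was omitted, it passed only for array 2 of the mbf1 deletion.

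The next highest difference was RPS0B at 0.48 for its _at probe set, which did not pass. The lowest was RPL9A at −0.53, followed by RPS31 at −0.33 and RPS25A at −0.28 for its _i_at probe set. RPL9A read 10.11, 10.49 and 10.49 in bna4 and 9.84, 9.64 and 10.01 in mbf1, with no overlap and no call. RPS31, which encodes a fusion of ubiquitin to a small subunit protein, read 12.94, 12.95 and 12.60 in bna4 and 12.49, 12.25 and 12.76 in mbf1. Its groups overlapped through array 3 of each. The difference was −0.33 ± 0.124 (limma adjusted p = 0.136), and it passed without array 3 of the mbf1 deletion (−0.46, adjusted p = 0.0257).

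RPL40A and RPL40B, the other ubiquitin fusions, encode an identical protein and share probe sets, so they are outside the 106. One of their 3 joint probe sets was lower in the mbf1 than in the bna4 deletion by 0.44 on the log2 scale (a change of −0.44 ± 0.0863, limma adjusted p = 0.00761). It read 11.91, 12.04 and 12.01 in bna4 and 11.65, 11.43 and 11.56 in mbf1, with no overlap. The other 2 changed by −0.16 and −0.09 and did not pass. That probe set was the only one called of the 59 with several ribosomal protein symbols, or 1.69%, against 10.5% of all probe sets. In the 3 comparisons of the first processing set limma called 0 of the 59, against 4.44%, 2.6% and 7.86% of all probe sets. An unadjusted p under 0.05 was reached by 4, 4 and 5 of them (6.78%, 6.78% and 8.47%), against 17.3%, 13.4% and 23.5% of all.

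**Figure D2:**
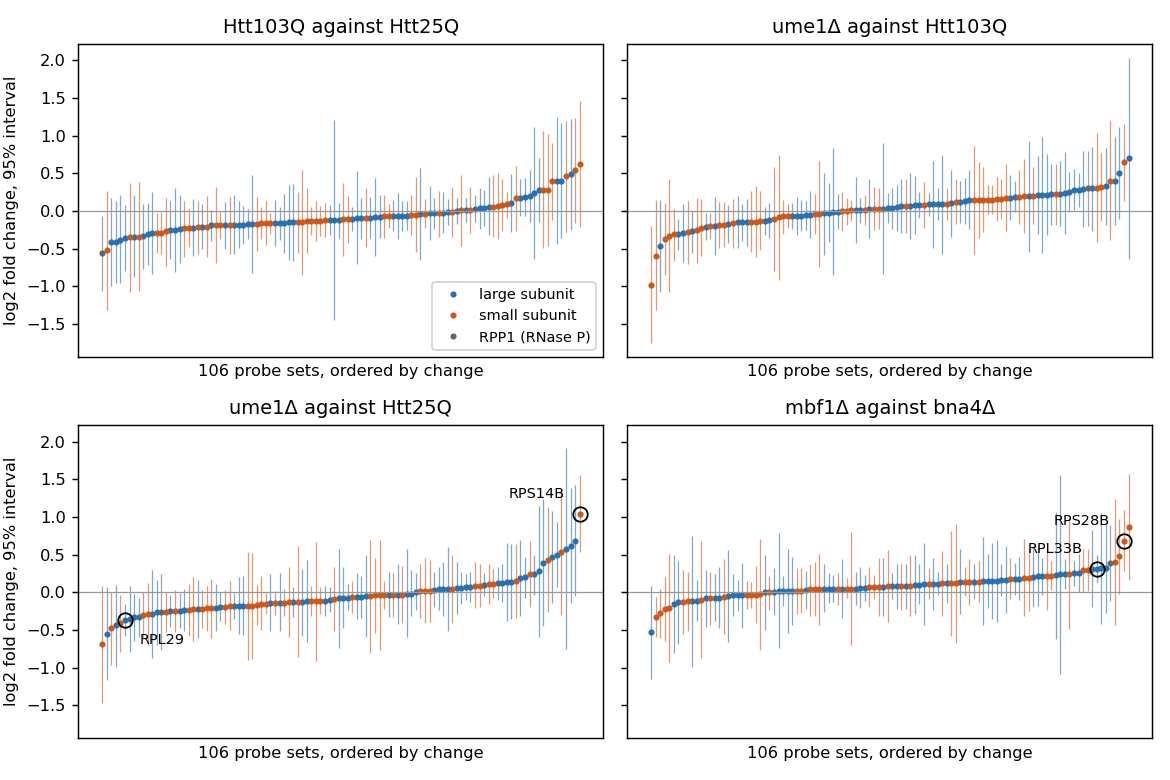
Log2 change of each of the 106 ribosomal protein probe sets, ranked, with 95% intervals, in the 4 comparisons; circles mark those called at an adjusted p under 0.05. Most intervals cross 0 and most lie inside −1 to 1, and the circled points number 0, 0, 2 and 2.

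The stalk of the large subunit, which recruits elongation factors, is built on RPP0 with the acidic proteins RPP1A, RPP1B, RPP2A and RPP2B. None of their 6 probe sets passed in any comparison. From Htt25Q to Htt103Q the changes were −0.25 for RPP0, −0.33 for RPP1A, −0.09 and −0.29 for RPP1B, −0.08 for RPP2A and −0.16 for RPP2B. All 6 were below 0. RPP1A read 12.59, 11.89 and 11.58 in Htt25Q and 11.85, 11.59 and 11.62 in Htt103Q, and RPP0 read 12.46, 11.82 and 11.64 against 12.12, 11.72 and 11.35. In both, array 1 of Htt25Q was the highest and the groups overlapped. In the ume1 deletion RPP0 was 0.30 from Htt103Q and 0.05 from Htt25Q, and RPP1A 0.07 and −0.26. Between the mbf1 and bna4 deletions the 6 probe sets differed by −0.13 (RPP1B) to 0.18 (RPP2A).

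RPL3 and RPL10, which lie at and near the peptidyl transferase centre, gave small values as well. RPL3 changed by −0.17 in Htt103Q against Htt25Q with no overlap, by 0.04 and −0.13 in the ume1 deletion against Htt103Q and Htt25Q, and by 0.24 between mbf1 and bna4 (limma adjusted p = 0.142). That last difference had no overlap, with 12.47, 12.61 and 12.57 in bna4 and 12.75, 12.73 and 12.87 in mbf1, and it passed in the fit without the first arrays of Htt25Q and of the ume1 deletion (0.24, adjusted p = 0.0193). RPL10 changed by −0.09, 0.28 (adjusted p = 0.357), 0.20 and −0.04 in the same order. RPL22A gave −0.18, 0.15, −0.03 and 0.21, and its copy RPL22B 0.06, −0.20, −0.14 and 0.20, with no call. Between the ume1 deletion and Htt25Q, RPL22B was at −0.39 without array 1 of Htt25Q, which passed (adjusted p = 0.0343), and at 0.04 without array 3. RPP1, outside the ribosome, gave 0.30 and −0.26 in the ume1 deletion against Htt103Q and Htt25Q and 0.39 between mbf1 and bna4.

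The large and the small subunit had close median changes. The difference of the 2 median changes, large minus small, was 0.018 for Htt103Q against Htt25Q, 0.058 and 0.069 for the ume1 deletion against Htt103Q and Htt25Q, and 0.009 for mbf1 against bna4. In single arrays the same difference of median deviations ran from −0.094 in array 3 of Htt103Q to 0.053 in array 1 of the bna4 deletion. No test was made of these medians. Members from duplicated genes (87 probe sets, 62 genes) and from single-copy genes (18 and 18) also had like medians, −0.104 and −0.12, 0.036 and 0.018, −0.074 and −0.089, and 0.097 and 0.05 in the 4 comparisons in the same order.

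The A and B copies were compared through the change of their log2 ratio, because 2 probe sets cannot be compared in level. Both copies had probe sets of 1 gene symbol in 31 pairs. Some of these probe sets have the suffix _f_at, given to sets shared by a sequence family, and RPL14, RPL33, RPS10 and RPS29 have no others. In such pairs the ratio may not part the copies. Unequal change was called in 1 pair and 1 comparison, RPS14 in the ume1 deletion against Htt25Q, where 7.86% of all probe sets were called. There 4 pairs had an unadjusted p under 0.05, against 23.5% of all probe sets. The RPS14 ratio is formed with the RPS14B probe set that was itself called in this comparison, so the pair's call is not independent of that one. The log2 ratio of RPS14A to RPS14B was 1.61, 1.40 and 1.19 in Htt25Q, 0.83, 0.95 and 1.48 in Htt103Q, and −0.09, 0.19 and 0.64 in the ume1 deletion. All 3 ume1 arrays lay below all 6 others. The change was −1.15 ± 0.282 (−1.77 to −0.53, limma adjusted p = 0.0312 over 9306 rows) against Htt25Q and −0.84 ± 0.282 (adjusted p = 0.192) against Htt103Q. The call held in 8 of 15 alternatives, with adjusted p of 0.0163 to 0.196. The alternative with only probe sets of no suffix letter keeps both RPS14 probe sets, so the call held there by construction. Without array 1 of Htt25Q, without its array 2, without array 1 and without array 2 of the ume1 deletion it was lost, at −1.05, −1.15, −0.98 and −1.12 (adjusted p 0.063 to 0.113).

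In the other 3 comparisons limma called 0 pairs, with 0, 2 and 2 at an unadjusted p under 0.05 for Htt103Q against Htt25Q, the ume1 deletion against Htt103Q and mbf1 against bna4. Of all probe sets, 4.44%, 2.6% and 10.5% were called there, and 17.3%, 13.4% and 21.2% had an unadjusted p under 0.05. The widest in the mbf1 comparison was RPS28, −0.70 ± 0.293 (adjusted p = 0.188), with ratios of 0.98, 1.29 and 1.64 in bna4 and 0.70, 0.64 and 0.46 in mbf1 and no overlap. RPL9 followed at −0.64 ± 0.341 and RPS0 at −0.35 ± 0.128 (adjusted p = 0.128), which passed without array 1 of the bna4 deletion (−0.47, adjusted p = 0.0406). In Htt103Q against Htt25Q the widest were RPL16 at −0.34, RPS14 at −0.31 and RPL13 at 0.31. RPL16 was at −0.07 and RPL13 at 0.03 without array 1 of Htt25Q. In the ume1 deletion against Htt103Q, RPL36 at 0.55 ± 0.343 and RPS7 at −0.44 ± 0.211 came after RPS14. Against Htt25Q, RPL9 had −0.61 ± 0.341, RPL15 −0.54 ± 0.181 (adjusted p = 0.0954) and RPL16 −0.58 ± 0.214 (adjusted p = 0.128). RPL16 was at −0.32 without array 1 of Htt25Q and passed without its array 3 (−0.78, adjusted p = 0.0476), and RPL9 was at −0.29 without array 1. The 95% interval of the ratio's change lay inside a 2-fold change for 30 of the 31 pairs in Htt103Q against Htt25Q, for 26 and 27 in the ume1 deletion against Htt103Q and Htt25Q, and for 28 in mbf1 against bna4.

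**Figure D3:**
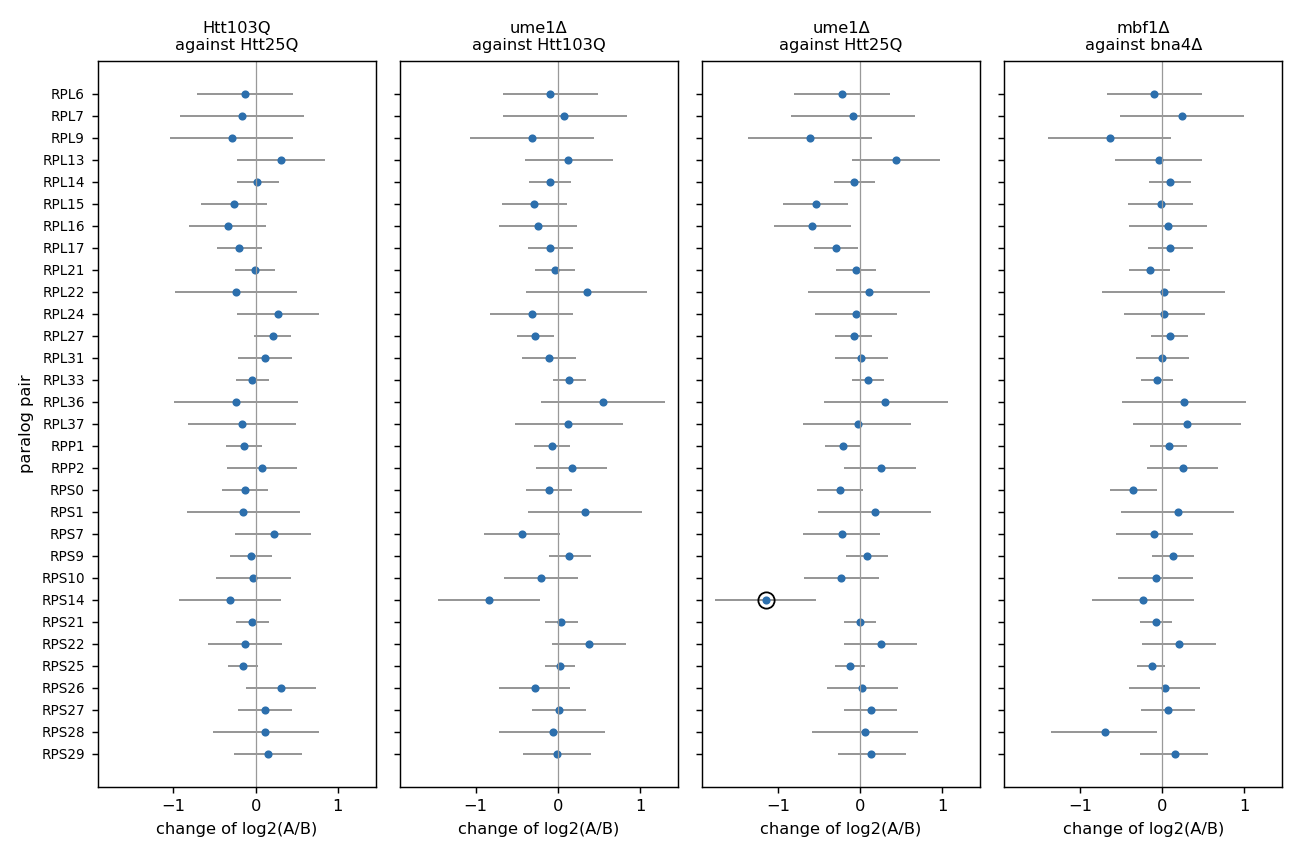
Change of the log2 ratio of copy A to copy B for 31 pairs of ribosomal protein genes, with 95% intervals, in the 4 comparisons; the circle marks the called pair. RPS14 in the ume1 deletion against Htt25Q, at −1.15, is the only circled pair. The row RPP1 stands for RPP1A and RPP1B.

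Where a gene had more than 1 probe set, the readings often differed. Of 21 such genes, the probe sets gave the same sign in 11 for Htt103Q against Htt25Q, in 9 and 16 for the ume1 deletion against Htt103Q and Htt25Q, and in 14 for mbf1 against bna4. Their median range was 0.21, 0.21, 0.19 and 0.15. The widest ranges were 0.76 for RPS0A, 0.99 for RPS10A, 0.74 for RPL17B and 0.52 for RPS22B. Probe sets that are not fully unique were common among the members: 28 had the suffix _f_at, given to sets shared by a sequence family, and 22 had _i_at, given to sets with fewer probes.

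Array 1 of Htt25Q, with its raised actin 3′ minus 5′ difference, departed from the other 2 arrays of its group by more than 1 (log2) in 13 members, 10 below and 3 above, or 12.3%, against 18.6% of all probe sets. The share was 25% of members with _f_at, 13.6% with _i_at and 5.36% with no letter. RPL7A departed there by −1.96 for its _at and −1.74 for its _f_at probe set, RPS0B by −1.77 and RPS0A by −1.48, yet the median of all members was 0.172. The part of RNA quality in the members' shift between Htt103Q and Htt25Q was not tested. Array 1 of the ume1 deletion had no member beyond 1, against 4.94% of all probe sets, with a member median of 0.028. In the second processing set, array 3 of the mbf1 deletion departed by more than 1 in 3 members, all below. These are 2.83%, against 4.82% of all probe sets, and the member median was 0.109.

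Between the processing sets, members were described only, since strain and set cannot be told apart. The bna4 and mbf1 arrays, 6 in all, lay wholly above the other 9 for 10 members and wholly below for 11, or 19.8%, against 26.8% of all probe sets. RPS10B had the widest gap, with 1 probe set at 6.59 in the first set and 2.60, near the lowest value, in the second. Its second probe set had group means of 11.85 to 12.14 in the first and 11.48 and 11.62 in the second. The dim _at probe set of RPL7A was 3.92 and 5.56, and RPS14B was lower in the second set by 1.16 (a difference of −1.16) and RPL29 by 0.80 (−0.80). Within sets, the group means varied most for RPS14B (SD 0.526), RPS10A (0.503) and the dim RPL7A probe set (0.375) in the first and for both RPS28B probe sets (0.616 and 0.484) and RPL9A (0.376) in the second.

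A list of regulators of ribosomal protein transcription was read beside the members. Of its 24 genes 23 were measured, by 33 probe sets. Of these probe sets 1 rose and 2 fell in Htt103Q against Htt25Q, 1 rose in the ume1 deletion against Htt103Q, 1 rose and 2 fell against Htt25Q, and 4 rose and 1 fell in mbf1 against bna4. These are 9.09%, 3.03%, 9.09% and 15.2% of the list's probe sets, against 4.44%, 2.6%, 7.86% and 10.5% of all probe sets. The shares count probe sets and not genes. TOR1 has several of them, most near the lowest values, and gives more than 1 of the calls in mbf1 against bna4. The list's median changes were 0.044, −0.004, 0.097 and 0, and without array 1 of Htt25Q the first was −0.024 and the third 0.006. IFH1, the coactivator at these promoters, read 8.23, 8.32 and 8.52 in Htt25Q, 8.08, 7.75 and 7.74 in Htt103Q, and 8.20, 8.52 and 8.53 in the ume1 deletion. Htt103Q was the lowest group, with no overlap. The ume1 deletion was above it by 0.56 ± 0.127 (limma adjusted p = 0.0442), and Htt103Q was below Htt25Q by −0.50 ± 0.127 (adjusted p = 0.0511), which did not pass. The first was lost without array 2 or 3 of either group (0.50 to 0.51, adjusted p 0.109 to 0.182), and the second passed without array 1 of Htt25Q (−0.56, adjusted p = 0.0488) or of Htt103Q (−0.61, adjusted p = 0.0267).

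TOD6, a repressor of ribosome synthesis genes, was lower in Htt103Q than in Htt25Q (−1.68 ± 0.342 on the log2 scale, limma adjusted p = 0.0203), TPK3, a catalytic subunit of protein kinase A, was lower too (−0.75, adjusted p = 0.0468), and LST8, a TOR complex subunit, rose by 0.82 (adjusted p = 0.00855). Against Htt25Q, the ume1 deletion had LST8 higher by 0.84 (adjusted p = 0.00503), RAP1 at −0.62 (adjusted p = 0.0401) and TPK3 at −0.69 (adjusted p = 0.0452). Without array 1 of Htt25Q, LST8 passed in both comparisons (0.67 and 0.70), TOD6 passed (−1.79), and TPK3 (−0.56 and −0.50) and RAP1 (−0.44) did not. TOD6 was lost without array 2 or array 3 of Htt103Q (adjusted p = 0.0826 and 0.0777), and RAP1 without array 1 or 2 of the ume1 deletion (0.134 and 0.0827). Of the fits that left out 1 array, TPK3 passed in 1 in the first comparison (without array 2 of Htt25Q) and in 2 in the second (without that array or array 3 of the ume1 deletion). In mbf1 against bna4, SCH9, the kinase through which TOR acts on these genes, rose by 0.93 ± 0.109 (adjusted p = 0.000336). It read 6.16, 6.14 and 6.36 in bna4 and 7.16, 7.14 and 7.14 in mbf1, far apart. KOG1, a TOR complex subunit, rose by 0.92 (adjusted p = 0.0286), and with 1 array left out it passed only for array 3 of the mbf1 deletion (adjusted p 0.0795 to 0.0891 for the other 5). TOR1 rose by 0.77 for its _at probe set (adjusted p = 0.00819) and by 2.06 for 1 with suffix _s_at (adjusted p = 0.0137), which lay at 2.66, 2.90 and 3.19 in bna4, close to the lowest values, and which did not pass without array 1 of either strain (adjusted p = 0.056 and 0.0593). Another 6 of its probe sets had means under 3 in both strains. STB3, a repressor of genes for ribosome synthesis, fell by 0.66 (−0.66, adjusted p = 0.0102).

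Dedicated chaperones bind single ribosomal proteins before assembly. All 10 listed were measured. In Htt103Q against Htt25Q limma called 0 of 10, with 4 at an unadjusted p under 0.05 (17.3% of all probe sets), and 9 had values below 0 with a median of −0.508. The median was −0.188 without array 1 of Htt25Q, with 1 at an unadjusted p under 0.05, and PUF6 was at −0.78. With all arrays, PUF6 was at −1.08 (limma adjusted p = 0.0503, and 0.0189 without array 3 of Htt25Q), SYO1 at −0.96 and RRB1, the chaperone of RPL3, at −0.78. Against Htt103Q the ume1 deletion had 0 called and 1 at an unadjusted p under 0.05 (median 0.076), against 2.6% and 13.4% of all probe sets. Against Htt25Q the list's median was −0.469, or −0.174 without array 1 of Htt25Q, and 9 values were below 0. There limma called 1 of 10 (10%, against 7.86% of all probe sets), with 2 at an unadjusted p under 0.05 (23.5% of all). The call was YAR1, the chaperone of RPS3, which rose by 0.68 (adjusted p = 0.00394) and passed without any single array of the 6. It read 8.87, 9.02 and 9.13 in Htt25Q, 9.44, 9.24 and 9.14 in Htt103Q, and 9.80, 9.62 and 9.63 in the ume1 deletion, so the ume1 arrays were above all others. RPS3 itself changed by −0.06 there. In mbf1 against bna4 limma called 0, with 1 at an unadjusted p under 0.05 (median −0.142), against 10.5% and 21.2% of all probe sets. Without array 1 of the mbf1 deletion, PUF6 (−1.16, adjusted p = 0.0299) and SYO1 (−1.08, adjusted p = 0.033) passed there.

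Of 20 listed factors that act on the ribosome 14 were measured, by 17 probe sets. In Htt103Q against Htt25Q 5.88% of these were called, against 4.44% of all probe sets. In the ume1 deletion it was 5.88% against Htt103Q (2.6% of all) and 5.88% against Htt25Q (7.86% of all). In mbf1 against bna4 it was 11.8%, against 10.5% of all. MBF1 rose by 1.08 in Htt103Q against Htt25Q (limma adjusted p = 0.000925) and by 1.28 in the ume1 deletion against Htt25Q (adjusted p = 0.000138), and no other member of the list passed in those comparisons. ANB1, the form of translation factor eIF5A made when oxygen is short, read 5.79, 4.72 and 4.76 in Htt25Q, 4.33, 3.98 and 4.06 in Htt103Q, and 6.09, 5.95 and 6.05 in the ume1 deletion. The ume1 arrays were above all others, by 1.91 from Htt103Q (adjusted p = 0.00526) and by 0.94 from Htt25Q (adjusted p = 0.0717), of which only the first passed with all arrays. The second passed too (1.29, adjusted p = 0.00529) without array 1 of Htt25Q. In mbf1 against bna4, ANB1 fell by 3.22 (−3.22, adjusted p = 4.5e-05), from 8.91, 8.16 and 8.24 to 5.09, 5.03 and 5.54, and the only other call was MBF1, the deleted gene. HYP2, the form of eIF5A made with oxygen, had 0.39 there (adjusted p = 0.23). ASC1, a protein of the small subunit named outside the RPS scheme, gave −0.12 and 0.09 for its 2 probe sets in Htt103Q against Htt25Q and 0.09 and 0.19 in mbf1 against bna4, and none passed.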

How the data were processed

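RNA of 15 samples in 5 groups of 3 was measured on Affymetrix Yeast Genome S98 arrays. The deposited values are log2 intensities, 1 per probe set and array; the sources used here do not say how the authors summarised and normalized them. Gene symbols come from the platform's probe table and were checked against RefSeq, where every member symbol matched. No coordinates are given because the files name no genome build.

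The 60 control probe sets were left out, and the other 9275 were quantile normalized over the 15 arrays. limma 3.58.1 (R 4.3.3) fitted 5 group means, with two-sided tests and Benjamini-Hochberg adjustment over all probe sets, called at 0.05. Log2 ratios of copy A to B, each the mean of its probe sets, were added as rows. The number of arrays limits the precision. The method was tested on simulated data with independent noise. These held no departing array and no change as small as the members' medians, so the test does not cover either.

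Members, lists and tests were chosen with earlier results of these data known. Named in each comparison were all called members if 10 or fewer, else the 6 largest each way; with under 3 called in a direction, the 3 most extreme; called pairs, or the 3 widest; the 3 members of highest SD between groups per set; up to 4 called genes a list; and the stalk proteins, ubiquitin fusions, RPL3, RPL10, RPL22A, RPL22B and RPP1. Other genes and pairs named were chosen after their values were seen. Alternatives varied the normalization, the arrays fitted, the variance prior, a filter on dim probe sets, the members and a replicate block, and left out each array in turn. Fits of the gene lists without single arrays were added after seeing the data.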

Additional observations from a re-analysis of the deposited data

How the results depend on the processing

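No called direction turned under any alternative tried. Members called numbered 0 in Htt103Q against Htt25Q throughout, 0 to 1 in the ume1 deletion against Htt103Q when 1 array was left out, and 2 against Htt25Q, where they were 1 with each processing set normalized alone, with centred deposited values, with an intensity trend or without probe sets of mean under 5, 0 with only the 6 arrays or without the 2 doubted arrays (array 1 of Htt25Q and of the ume1 deletion), and 0 to 5 with 1 array left out. In mbf1 against bna4 the 2 calls became 0 with deposited or centred values or with only probe sets of no suffix letter, 1 with the trend, the dim filter or 1 mean per gene, 4 with the set alone or its 6 arrays, 7 without the doubted arrays and 0 to 1 with 1 array left out. The cause of these moves was not tested, other than fewer arrays or probe sets by construction. The doubted arrays belong to neither the mbf1 nor the bna4 deletion. Without them the log2 changes of that comparison stayed as they were (RPS28B 0.68, RPL33B 0.31). Only the estimate of the spread, shared by all groups, and the tests that use it differed there. Unequal pairs in the ume1 deletion against Htt25Q numbered 1, then 0 with the set alone, the 6 arrays or without the doubted arrays, and 0 to 3 with 1 array left out; in mbf1 against bna4 they were 0 to 1.

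Large minus small subunit medians, main 0.018, became −0.055 without suffix letters and −0.048 to 0.034 with 1 array left out for Htt103Q against Htt25Q. For the ume1 deletion against Htt103Q (0.058) they were 0.008 and 0.012 to 0.094, and against Htt25Q (0.069) 0.02 with deposited and with centred values, −0.002 without suffix letters, 0.036 per gene, −0.01 with several-gene probe sets and 0.022 to 0.082 with 1 array left out. For mbf1 against bna4 (0.009) they were 0.008 to 0.047 with 1 array left out, −0.002 with deposited and with centred values and −0.015 without suffix letters. The sign of these differences is therefore not settled.

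Replicate numbers did not pair the arrays: same-number residuals correlated at −0.169 to 0.434, and no comparison had every pair over 0.1. With the replicate block, members called were 0, 0, 2 and 3 and unequal pairs 0, 0, 1 and 0, and the called probe set of RPS28B was not called (adjusted p = 0.0532) while RPL33A and RPS27B were.

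Calls over all probe sets moved by over 1.5 times in some settings. For Htt103Q against Htt25Q 412 became 127 with the set alone, 32 with the 6 arrays, 625 without the doubted arrays and 191 to 559 with 1 array left out. For the ume1 deletion 241 against Htt103Q became 56, 121, 464 and 115 to 241, and 729 against Htt25Q became 243, 75, 794 and 464 to 871. In mbf1 against bna4 978 became 1269, 1242, 1745 and 634 to 920. With 3 arrays a group, a median standard error of 0.167 limits what single members can show, and dim probe sets, such as 1 of RPL7A, lie near background.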
